A study of Homo sapiens with 14 samples.

Results

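TMEM45A, CENPW, EIF2B2, ERH, GEMIN6 and ST20 were 6 genes with lower values on the arrays of cells with ANGPTL4 knockdown than on their partner arrays in all 6 pairs of treatment and time. They were chosen from the knockdown difference itself, as the genes of this kind that passed a paired test across all genes, leaving out ANKRD1, MT1X and a small nucleolar RNA that met the same description. They are 6 of 18417 genes named on the array and 6 of the 11050 that passed a filter on low values. ANGPTL4 is a secreted protein known for inhibiting lipoprotein lipase, and the study asked what its loss does to gastric cancer cells that undergo epithelial to mesenchymal transition (EMT).

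Expression was measured on 14 Affymetrix Human Gene 1.0 ST arrays, each of 1 condition, in a gastric carcinoma line that the labels call MKN28 and the study calls MKN74, and in a derivative of it, MKN28snai1ER. The derivative carries the EMT transcription factor Snai1 fused to an estrogen receptor domain, so that 4-hydroxytamoxifen (4-OHT) can switch it on. Parental cells were untreated for 2 days, kept in hypoxia at 1% oxygen for 1 or 2 days, or given TGF-β at 10 ng/mL for 1 or 2 days. Snai1ER cells were untreated for 4 days or given 4-OHT at 20 ng/mL for 2 or 4 days. Each of the 6 treated conditions had an array without and an array with ANGPTL4 knockdown, while neither of the 2 untreated arrays had a knockdown partner, so a knockdown difference in untreated cells was not measured. For the Snai1ER line the labels name a short hairpin RNA against ANGPTL4, which the study describes as a doxycycline-inducible transgene. The labels do not give the agent used in the parental arrays, whether doxycycline was present, or a non-targeting control. The study describes knockdown by siRNA in the parental line for its functional assays, and does not say whether the arrays used it. All cells were seeded sparsely in RPMI medium with 10% serum so that they grew as separate colonies. A difference shared by the 6 pairs is therefore measured over 6 different conditions and not over repeats of 1 condition.

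The cells carried the profile of an epithelial line, as all 6 epithelial markers examined passed the filter with median log2 levels from 8.15 to 11.85, and 10 of 11 markers of blood, endothelial and stromal cells were on the array with median levels from 3.21 to 7.01, 1 of them (COL1A1) above the filter. SNAI1 lay between 8.80 and 9.85 on the 5 Snai1ER arrays and between 4.76 and 6.19 on the 9 parental arrays. The ANGPTL4 probe set did not show the knockdown: it was below the filter on average, at 4.16 to 5.43 without and 5.28 to 5.66 with knockdown on the treated arrays, so the knockdown labels are taken from the submitters alone. The arrays of TGF-β without knockdown stood apart in scale, with medians over all probe sets of 5.23 and 5.19 where the other 12 arrays lay between 6.0 and 6.16. This moved the median gene by 0.46 in both TGF-β pairs, against -0.11 to -0.02 in the other pairs, and a value after quantile normalization of the arrays is therefore given where it turns a stated direction or call. ANGPTL4 was higher with knockdown in the TGF-β pairs by 1.13 and 1.04 as deposited, but by 0.14 and 0.04 after quantile normalization. It was lower with knockdown in 1 of the 6 pairs on either scale.

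The 6 genes have different roles. CENPW is a histone-fold protein that pairs with CENPT in the inner kinetochore, the structure by which a chromosome holds its spindle fibres. EIF2B2 is the beta subunit of eIF2B, the exchange factor that reloads eIF2 with GTP and so sets the pace of translation initiation. GEMIN6 belongs to the SMN complex, which loads Sm proteins onto small nuclear RNAs for splicing, and ERH is a small conserved nuclear protein that binds the microRNA-processing Microprocessor. TMEM45A is a multi-pass membrane protein known to be induced by hypoxia. ST20 was named as a suppressor of tumorigenicity. Each gene was read by 1 probe set, and ST20 is annotated as a long noncoding RNA in RefSeq (GRCh38.p14), although the list was described as one of coding genes. The ST20 locus also gives a readthrough transcript with its neighbour MTHFS, and what the probe set takes from that transcript was not tested.

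The promoters of the 6 genes were read from RefSeq (GRCh38.p14), from 250 bases before to 50 after the annotated start, to see what sequence they share, and all 6 matched. The letters CCAAT, searched on both strands, occur in 5 of the 6, with GEMIN6 as the exception, and in 34.6% of 35116 RefSeq promoters of the same length. These letters form the classical box bound by the NF-Y factor and are common in promoters without a TATA box. TMEM45A holds a pair of such boxes 31 bases apart, and CENPW a pair 22 bases apart. The TMEM45A promoter is printed whole because TMEM45A is the gene whose level moved most with treatment. The other 4 are shown as windows of 60 bases around the match nearest the start site, with CCAAT or its reverse complement ATTGG in capitals and each sequence written 5′ to 3′ along the gene's own strand.
TMEM45A, chr3:100492369-100492668, plus strand: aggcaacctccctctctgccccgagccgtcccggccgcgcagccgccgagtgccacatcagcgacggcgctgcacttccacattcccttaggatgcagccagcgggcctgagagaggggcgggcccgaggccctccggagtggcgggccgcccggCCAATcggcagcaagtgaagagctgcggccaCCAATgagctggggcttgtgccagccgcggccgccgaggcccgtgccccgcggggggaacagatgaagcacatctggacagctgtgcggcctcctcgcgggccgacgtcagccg
CENPW, chr6:126339886-126339945, plus strand: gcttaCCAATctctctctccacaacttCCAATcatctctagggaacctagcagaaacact
EIF2B2, chr14:75002777-75002836, plus strand: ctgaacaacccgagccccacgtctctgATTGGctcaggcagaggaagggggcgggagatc
ERH, chr14:69398283-69398342, minus strand: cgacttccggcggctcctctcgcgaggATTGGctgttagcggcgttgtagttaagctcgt
ST20, chr15:79923703-79923762, minus strand: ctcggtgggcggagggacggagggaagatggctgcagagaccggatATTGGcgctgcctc

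Counted from the start site, the CCAAT matches begin at -95 and -64 in TMEM45A, at -224 and -202 in CENPW, at -117 in EIF2B2, at -16 in ERH and at -142 and 37 in ST20, so they hold no common position. The GC box GGGCGG occurs in 4 of the 6 promoters (TMEM45A, CENPW, EIF2B2 and ST20) and in 45% of all promoters. ACGTG, a form of the core of the hypoxia response element, occurs in EIF2B2 alone, against 21.4% of all promoters, and is absent from the TMEM45A window. Other forms of that core were not searched. CAGGTG, an E-box that Snai1 can bind, occurs in EIF2B2 and ST20 (20.6% of all), and CCGGAA, the core bound by ETS factors, in EIF2B2 and ERH (17.2%). The E-box CACGTG, which contains ACGTG, has no match in the 6 windows and is found in 7.26% of all promoters. Neither the TATA box TATAAA (11.5% of all) nor the NF-kB consensus (5.91%) has a match in them. In EIF2B2 the ETS core and 1 GC box overlap by a base. A match describes the letters of the window and is not evidence of binding. The GC content of the windows ran from 49.3% in ERH to 72.3% in TMEM45A, around the median of 58.7% for all promoters.

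TMEM45A was the gene of the list with the widest swing between treatments. Its log2 level was 7.88 in untreated parental cells, 9.95 and 9.50 after 1 and 2 days of hypoxia, and 8.44 and 8.32 in hypoxia with knockdown. With TGF-β it was 7.48 and 7.74 without and 6.73 and 6.46 with knockdown. In the Snai1ER line it was 7.38 untreated, 7.97 and 7.72 after 2 and 4 days of 4-OHT, and 6.43 and 6.12 with knockdown. The hypoxic arrays were thus the highest, and the hypoxic knockdown arrays still lay above every TGF-β and 4-OHT array, so the ranges without and with knockdown overlap across treatments. Within pairs, the knockdown array was lower by a mean log2 difference of -1.31 ± 0.32 (SD, n = 6 pairs), or 2.48-fold, from -0.75 with TGF-β at day 1 to -1.60 with 4-OHT at day 4. In these bulk samples, less RNA per cell and fewer cells that express a gene cannot be told apart.

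CENPW, the kinetochore gene, was at 8.89 in untreated parental and 9.08 in untreated Snai1ER cells. Without knockdown its level was 8.63 and 8.17 in hypoxia, 9.30 and 9.16 with TGF-β, and 9.10 and 8.80 with 4-OHT, each at the earlier and later day. With knockdown it was 6.54 and 7.28, 8.18 and 8.29, and 7.48 and 7.75 in the same order. The lowest level was that of hypoxia at day 1 with knockdown, and the ranges overlap only because 2 TGF-β knockdown arrays lie above the hypoxic array of day 2. The pair difference was -1.27 ± 0.48 (SD, n = 6 pairs), from -0.88 with TGF-β at day 2 to -2.09 in hypoxia at day 1.

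EIF2B2, the eIF2B subunit, was at 8.95 in untreated parental cells and 9.63 in untreated Snai1ER cells. Its levels without knockdown were 9.25 and 8.86 in hypoxia, 8.87 and 9.03 with TGF-β and 9.58 and 9.68 with 4-OHT. Those with knockdown were 8.31 and 6.93, 7.75 and 7.94, and 8.92 and 8.49. Hypoxia at day 2 with knockdown was the low array for this gene, while the 2 Snai1ER arrays were the highest of the 6 with knockdown. Its pair difference was -1.15 ± 0.42 (SD, n = 6 pairs), the smallest being -0.66 with 4-OHT at day 2 and the largest -1.92 in hypoxia at day 2.

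ERH, the small nuclear protein, was at 10.81 and 11.24 in untreated parental and Snai1ER cells. Without knockdown it was at 10.80 and 10.56 in hypoxia, 11.10 and 11.12 with TGF-β, and 11.17 and 11.21 with 4-OHT. With knockdown the levels were 9.72 and 9.50, 10.02 and 10.53, and 9.37 and 10.13. ERH was the 1 gene of the 6 whose treated arrays with knockdown (9.37 to 10.53) all lay below those without (10.56 to 11.21), a separation found in 0.516% of the 11050 genes, and since the genes were chosen on this contrast nothing is read from that count. The pair difference was -1.12 ± 0.39 (SD, n = 6 pairs), from -0.59 with TGF-β at day 2 to -1.8 with 4-OHT at day 2.

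GEMIN6, the SMN complex gene, was at 9.19 in untreated parental and 9.95 in untreated Snai1ER cells. Without knockdown its levels were 8.42 and 8.20 in hypoxia, 8.98 and 8.90 with TGF-β, and 9.77 and 9.09 with 4-OHT. With knockdown they were 6.51 and 7.08, 8.32 and 8.01, and 8.50 and 8.0. As deposited, all 6 treated arrays without knockdown lay below the untreated array of their line (5 of 6 after quantile normalization, 4 of 6 after median centring). With TGF-β the differences were -0.20 and -0.29, where the median gene lay at -0.46, so that part depends on the scale. The share of all genes with such a count was not computed. Within pairs the knockdown arrays lay lower still, with both hypoxic ones at the bottom. The pair difference was -1.16 ± 0.43 (SD, n = 6 pairs), from -0.66 with TGF-β at day 1 to -1.91 in hypoxia at day 1.

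ST20 was the gene with the most uneven knockdown difference. Its level was 7.80 in untreated parental and 7.05 in untreated Snai1ER cells, 7.64 and 7.93 in hypoxia, 8.27 and 8.38 with TGF-β, and 7.39 and 7.53 with 4-OHT. With knockdown it was at 7.49 and 6.81 in hypoxia, 6.93 and 6.55 with TGF-β, and 5.58 and 6.04 with 4-OHT. The hypoxic pair of day 1 differed by -0.15, against -1.12 to -1.82 in the other 5 pairs, for a mean of -1.29 ± 0.62 (SD, n = 6 pairs). After quantile normalization the levels of that pair were 7.51 without and 7.55 with knockdown, a difference of 0.04, so on that scale ST20 was lower in 5 of 6 pairs and no longer meets the description by which it was listed. The other 5 genes were lower in 6 of 6 pairs on both scales.

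**Figure D1:**
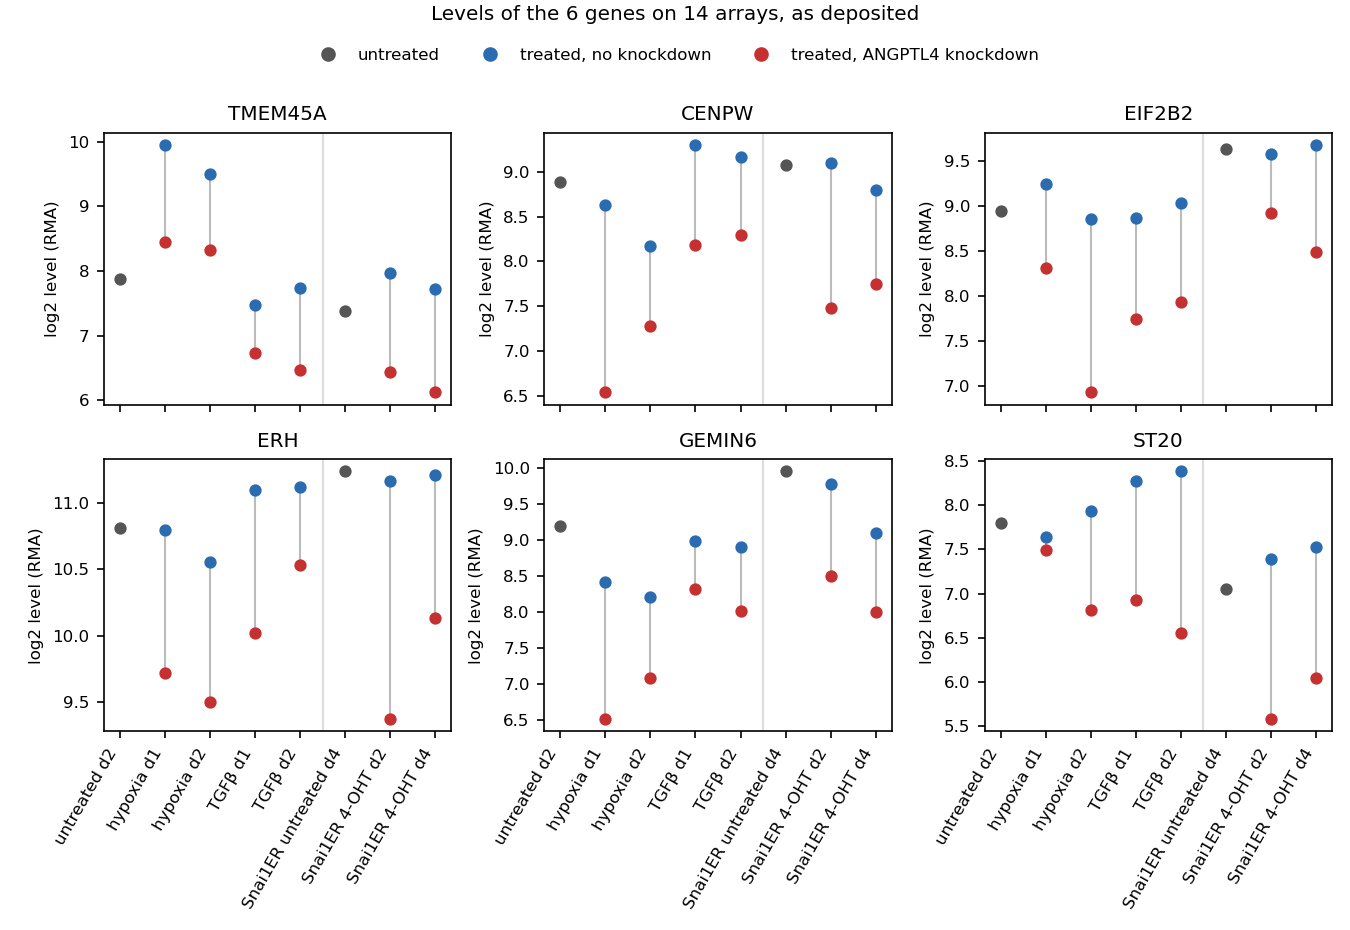
Log2 level (RMA, as deposited, vertical axis, own scale in each panel) of TMEM45A, CENPW, EIF2B2, ERH, GEMIN6 and ST20 on each of 14 arrays, by condition (d, day), with 1 point per array and no error bar because each condition is 1 array; grey lines join the arrays of a pair and the vertical line parts the parental from the Snai1ER line. Every red knockdown point lies below its blue partner, with the narrowest gap for ST20 in hypoxia at day 1 (-0.15), and TMEM45A is highest in hypoxia without knockdown (9.95 and 9.50).

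The values that chose the 6 genes are given here as a description and support nothing further. A difference below 0 in all 6 pairs was found for 302 of 11050 genes (2.73%) as deposited and for 920 (8.33%) after quantile normalization. Of these 302, 9 (0.0814% of the genes tested) also had an adjusted p below 0.05 in limma's paired fit with Benjamini-Hochberg adjustment, and 1843 genes had an unadjusted p below 0.05 in either direction. The 9 were the 6 genes together with SNORD116-6, a small nucleolar RNA, ANKRD1, an ankyrin-repeat protein, and MT1X, a metallothionein. The members nearest the threshold were ST20 (limma adjusted p = 0.0446) and ERH (0.0397), and the genes just outside it were MFAP5, a microfibril-associated protein with a mean difference of -1.24 (0.0573), and BCL2L15, a BCL2 family member with -1.61 (0.0602). After quantile normalization 89 genes (0.805%) passed in the lower direction, all 6 among them, with mean differences from -1.21 for ERH to -1.49 for TMEM45A.

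**Figure D2:**
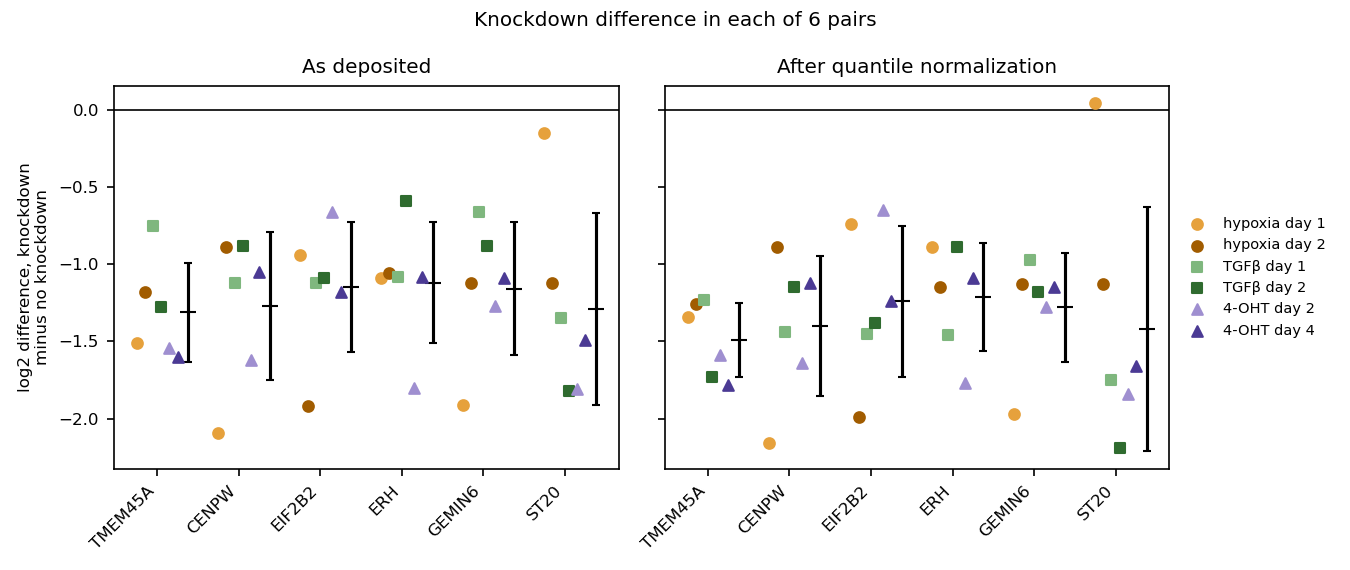
Log2 difference between the array with and the array without ANGPTL4 knockdown (vertical axis) for each gene (horizontal axis) in each of the 6 pairs, as deposited (left) and after quantile normalization (right), with circles for hypoxia, squares for TGF-β and triangles for 4-OHT; black bars are the mean ± SD of 6 pairs. The points lie between -0.15 and -2.09 on the left, and the single point above 0 on the right is ST20 in hypoxia at day 1 (0.04).

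The knockdown difference was next compared between lines and between days. Both comparisons use the same 6 pair differences whose small spread helped to choose the genes, so genes with a difference that varied by line or day were less likely to be listed, and the absence of a call among the 6 shows little by itself. The difference was compared between the 2 Snai1ER pairs and the 4 parental pairs with an interaction term in limma, which called 5 of 11050 genes (0.0452%) and none of the 6. For ST20 the Snai1ER difference minus the parental one was -0.54 (SE 0.46, 95% interval -1.53 to 0.45, limma adjusted p = 0.709), for ERH -0.49 (SE 0.38, interval -1.31 to 0.34, adjusted p = 0.693) and for TMEM45A -0.39 (SE 0.37, interval -1.20 to 0.41, adjusted p = 0.739). EIF2B2 leaned the other way, at 0.35 (SE 0.41, interval -0.53 to 1.22, adjusted p = 0.790). CENPW and GEMIN6 had estimates near 0, at -0.09 (interval -1.03 to 0.85) and -0.04 (interval -0.94 to 0.86), which turned to 0.03 and 0.10 after quantile normalization. Each of the 6 intervals reaches from below to above 0, and all but that of GEMIN6 reach past a 2-fold difference on 1 side. With 6 pairs a difference between the lines of about that size was therefore not excluded, and similarity was not shown. The parental pairs carry hypoxia or TGF-β and the Snai1ER pairs 4-OHT, so line and treatment cannot be told apart in this test. The knockdown agent may differ between the lines as well.

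The later day was compared with the earlier in the same way. The interaction of knockdown with day called 0 of 11050 genes (0%) in limma at an adjusted p below 0.05, with 58 genes at an unadjusted p below 0.05. CENPW had the largest estimate among the 6, a knockdown difference closer to 0 by 0.67 at the later day (SE 0.42, 95% interval -0.21 to 1.55; after quantile normalization 0.69, interval 0.05 to 1.33, limma adjusted p = 0.982), since its difference went from -2.09 to -0.89 in hypoxia, from -1.12 to -0.88 with TGF-β and from -1.62 to -1.05 with 4-OHT. ERH (0.41) and GEMIN6 (0.25) also had smaller differences at the later day on average, and EIF2B2 (-0.49), ST20 (-0.37) and TMEM45A (-0.09) larger ones, all with a limma adjusted p of 0.9996. The plain change from the earlier to the later day, over 6 pairs of arrays with the same treatment and knockdown label, likewise called 0 genes (0%), with 152 at an unadjusted p below 0.05. Its means for the 6 genes ran from -0.29 for EIF2B2 to 0.14 for ERH. TMEM45A and GEMIN6 were lower at the later day in 5 of 6 such pairs, by means of -0.19 (SE 0.12) and -0.21 (SE 0.16), and neither passed the test (limma adjusted p = 0.999). The widest single step was that of EIF2B2 in hypoxia with knockdown, a difference of -1.37 from day 1 to day 2.

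Without knockdown, TMEM45A and GEMIN6 in hypoxia were the genes of the 6 that differed most from untreated cells as deposited. Each treated array was set against the 1 untreated array of its line, and a gene was counted where both days differed by at least 1.5-fold (0.585 on the log2 scale) in the same direction, a criterion of size alone, since no untreated array was repeated. The untreated arrays were taken at day 2 and day 4, so the earlier treated arrays are not matched for day. The treated arrays without knockdown are 1 side of the contrast that chose the genes, so high values on them were favoured by the choice. The differences and ranks without knockdown are therefore a description. In hypoxia TMEM45A was past the rule on the higher side, at 2.08 and 1.62, as did 2.94% of all genes, and its mean difference of 1.85 was the 13th highest of 11050. GEMIN6 was past it on the lower side, at -0.76 and -0.99, as did 1.71% of all genes, and its mean of -0.87 ranked 61 from the lowest. The other 4 lay between -0.72 (CENPW at day 2) and 0.30 (EIF2B2 at day 1).

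No gene of the 6 passed the rule with TGF-β without knockdown as deposited, where 32.7% of all genes did in one direction or the other on the arrays with the low medians. ST20 came closest, at 0.47 and 0.57, and after quantile normalization it was past the rule on the higher side (0.87 and 0.94), as were 2.5% of all genes. The median gene lay at -0.46 on the deposited scale here, so ST20, CENPW and ERH, with means of 0.52, 0.35 and 0.30, ranked 88, 187 and 247 from the highest of 11050 (89, 301 and 629 after quantile normalization). After median centring 4 of the 6 were past the rule on the higher side, as were 22.5% of all genes, with the median gene at 0.35. High values on these arrays were favoured by the choice of genes, so these ranks and counts are a description. CENPW differed by 0.42 and 0.28 as deposited and by 0.72 and 0.53 after quantile normalization. TMEM45A lay below untreated cells as deposited (-0.40 and -0.14) and above them after quantile normalization (0.08 and 0.30). At day 1 EIF2B2 (-0.08 to 0.23) and GEMIN6 (-0.20 to 0.06) also changed side between these scales. With 4-OHT without knockdown none of the 6 passed, against 3.48% of all genes in either direction. GEMIN6 was at -0.86 on day 4 and -0.17 on day 2, TMEM45A at 0.34 and 0.59, and ERH, EIF2B2 and CENPW stayed between -0.28 and 0.05.

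With knockdown, most of the 6 lay below untreated cells that had no knockdown. With 4-OHT and knockdown all 6 were past the rule on the lower side (4.86% of all genes), from -0.71 for EIF2B2 at day 2 to -1.95 for GEMIN6 at day 4. With TGF-β and knockdown 5 of 6 were (3.08% of all genes), ERH being the exception at -0.79 and -0.28. In hypoxia with knockdown 4 of 6 were (6.29% of all genes): GEMIN6 at -2.67 and -2.11, CENPW at -2.35 and -1.61, ERH at -1.09 and -1.31, and EIF2B2 at -0.64 and -2.01. After quantile normalization EIF2B2 at day 1 was -0.46 and left this count. TMEM45A stayed above untreated cells in hypoxia with knockdown, by 0.56 and 0.44. Counted by arrays, CENPW, EIF2B2, ERH, GEMIN6 and ST20 lay below the untreated array of their line on 6 of 6 knockdown arrays, as did 10.7% of all genes, and TMEM45A did on 4 of 6. These counts rest on arrays that the choice of genes used, and are given as a description. Because the same untreated array serves both treatments of the parental line, the hypoxia and TGF-β values share it.

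**Figure D3:**
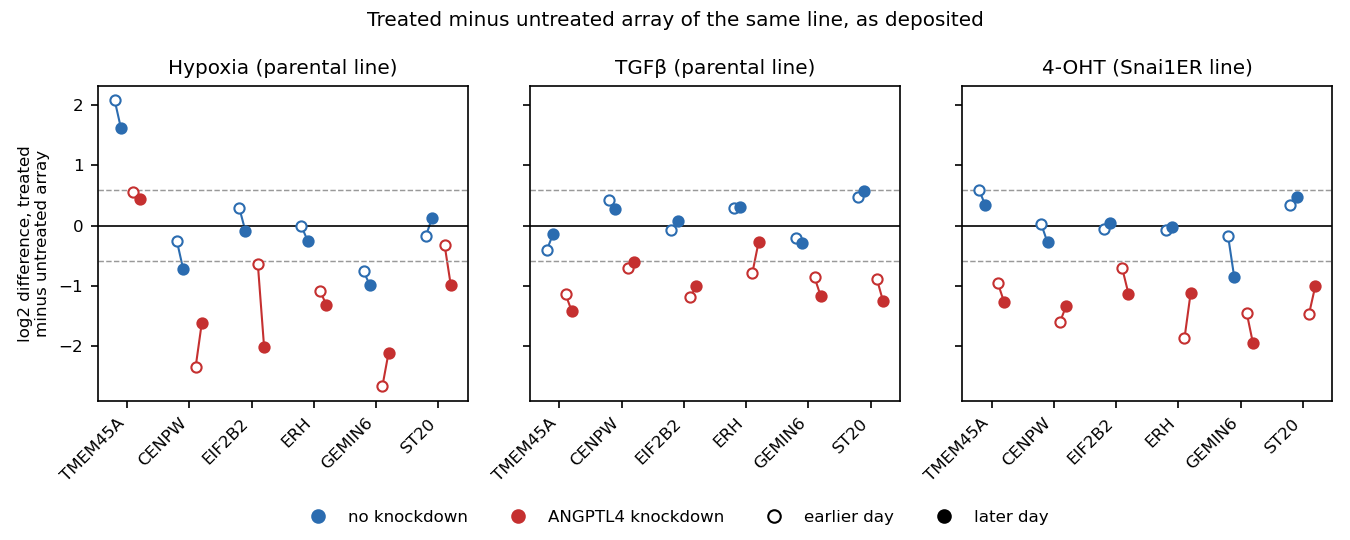
Log2 difference between each treated array and the untreated array of the same line (vertical axis), as deposited, for each gene (horizontal axis) in hypoxia, TGF-β and 4-OHT; open points are the earlier and filled points the later day, blue without and red with ANGPTL4 knockdown, each point is 1 array difference, and dashed lines mark 1.5-fold. TMEM45A in hypoxia is the highest point (2.08), and with 4-OHT the 12 red points lie between -0.71 and -1.95.

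The untreated lines differed from each other as well. In Snai1ER cells GEMIN6 was higher than in parental cells by 0.76, EIF2B2 by 0.68, ERH by 0.43 and CENPW by 0.19, and the differences of ST20 and TMEM45A were -0.75 and -0.50. All genes together had a median of 0.02. These are 1 array against 1, taken on different days, with no replicate.

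Lists of genes related to 5 of the 6, by complex or by response to low oxygen, were examined without the 6 themselves, and none of the listed genes passed the knockdown test as deposited in either direction. The median knockdown difference of all 11050 genes was 0.12 (mean of 6 pairs per gene), which is the scale for what follows. Among 11 other genes of eIF2, its exchange factor eIF2B and the eIF2 kinases the median was -0.10 and 7 lay below 0. The other 4 eIF2B subunits were at -0.16 (EIF2B1), 0.03 (EIF2B3), -0.21 (EIF2B4) and -0.40 (EIF2B5), against -1.15 for EIF2B2. After quantile normalization, where the median of all genes was -0.06, the list's median was -0.19 and EIF2B3 was at -0.04. None of the 11 was lower in all 6 pairs as deposited, and on the quantile scale EIF2AK1, an eIF2 kinase, was, with a mean of -0.19 (limma adjusted p = 0.374).

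In the SMN complex and Sm protein list, 14 other genes had a median of 0.02 as deposited and -0.18 after quantile normalization. As deposited 3 of them were lower in 6 of 6 pairs (2.73% of all genes were), and these encode Sm proteins, which form the ring around spliceosomal small nuclear RNAs. SNRPF had a mean difference of -0.86 (SE 0.19, limma adjusted p = 0.0952), SNRPD2 -0.66 (SE 0.18, adjusted p = 0.156) and SNRPD1 -0.62 (SE 0.18, adjusted p = 0.191). After quantile normalization SNRPF (-0.93, limma adjusted p = 0.0381) and SNRPD1 (-0.70, 0.0403) passed, so these calls depend on the scale. The 3 genes lower in 6 of 6 pairs on that scale (8.33% of all genes) were SNRPF, SNRPD1 and GEMIN7, while SNRPD2 was at 0.01 in hypoxia at day 1. SNRPF was at 9.23 in untreated parental cells, between 8.48 and 9.69 on the treated arrays without knockdown and between 7.82 and 9.14 on those with it, so its groups overlap. GEMIN7, which binds GEMIN6 directly, was at -0.83 (SE 0.26, limma adjusted p = 0.194) as deposited and at -1.06 (SE 0.22, 0.0647) after quantile normalization. Its TGF-β pair of day 2, one of those with the shifted median, turned from 0.28 to -0.26 between these scales. STRAP (0.51), GEMIN4 (0.35), GEMIN5 (0.31) and DDX20 (0.30) had values above 0 and did not pass. Of these, STRAP was higher in all 6 pairs on both scales, as were 741 of 11050 genes as deposited and 424 after quantile normalization.

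Of the inner kinetochore and centromere loading genes, 16 others were above the filter, with a median of 0.08 and 7 below 0 as deposited, and a median of -0.08 and 10 below 0 after quantile normalization. CENPT, the partner of CENPW, was at 0.46 (SE 0.19, limma adjusted p = 0.273) where CENPW was at -1.27. OIP5, a centromere loading factor, was the 1 gene of this list with all pairs lower as deposited (2.73% of all genes were), at -0.28. After quantile normalization it was at 0.07 in hypoxia at day 1 and 0 genes of the list were lower in all pairs. The 5 partners of ERH had a median of 0.07, or -0.01 after quantile normalization, with the Microprocessor genes DGCR8 at 0.59 and DROSHA at 0.25, neither past the test. The 16 hypoxia targets above the filter had a median of -0.08 with 9 below 0, and none on either scale was lower in all 6 pairs; TMEM45A was at -1.31. The means of the 16 targets ran from -0.65 for P4HA2 to 0.29 for EGLN1 (limma adjusted p = 0.251 and 0.435). VEGFA was at -0.45 (limma adjusted p = 0.354), lower in 3 of 6 pairs as deposited and in 5 of 6 after quantile normalization. TMEM45B, the paralogue of TMEM45A, was lower in 5 of 6 pairs with a mean of -0.71 (SE 0.21, limma adjusted p = 0.191), the exception being TGF-β at day 1 (0.12). After quantile normalization that pair was at -0.20, and TMEM45B was lower in 6 of 6 pairs with a mean of -0.82 (SE 0.16, limma adjusted p = 0.0579). ST20-AS1, the antisense neighbour of ST20, was at 0.00 as deposited and at -0.33 (SE 0.15, limma adjusted p = 0.272), lower in 6 of 6 pairs, after quantile normalization. Of its other neighbours, BCL2A1 was below the filter and the probe set of MTHFS carries more than 1 symbol and was not used.

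**Figure D4:**
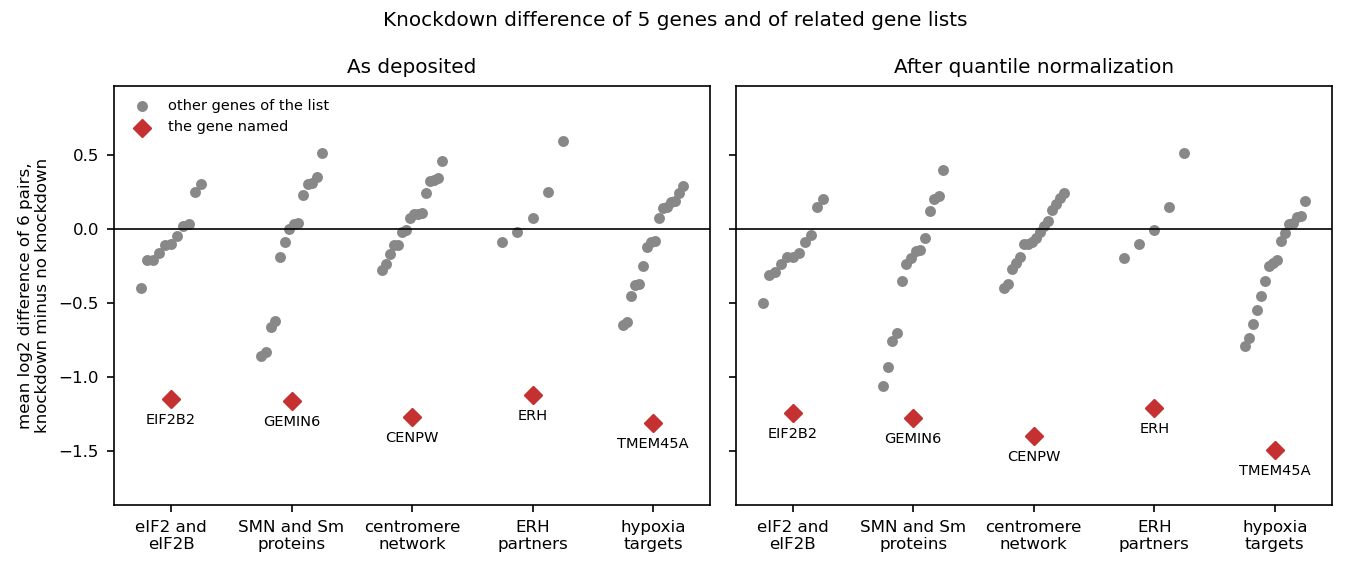
Mean log2 knockdown difference over 6 pairs (vertical axis) of 5 of the 6 genes (red diamonds) and of the other genes of the list each was set with (grey points, 1 per gene above the filter, in order of value), as deposited (left) and after quantile normalization (right). The diamonds lie between -1.12 and -1.31 on the left, and they were chosen for low values; the nearest grey points there are the Sm protein gene SNRPF (-0.86) and the SMN complex gene GEMIN7 (-0.83).

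The 6 genes did not share 1 pattern over the arrays. Over 14 arrays on the deposited scale, the level of CENPW had a Pearson correlation of 0.91 with ERH and 0.89 with GEMIN6, while TMEM45A had -0.11 with GEMIN6 and 0.04 with CENPW. Over the 8 arrays without knockdown, after quantile normalization, TMEM45A and GEMIN6 had a correlation of -0.90, and TMEM45A and ERH -0.73. TMEM45A was high and GEMIN6 low on the 2 hypoxic arrays among them. These are descriptions over arrays that share their lines, treatments and the knockdown contrast by which the genes were chosen.

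The genes most like each of the 6 over 14 arrays after quantile normalization, 3 for each, were named by Pearson correlation. For CENPW they were SNRPF (0.951), the DNA repair exonuclease gene EXO5 (0.942) and MIX23 (0.939), for ERH the splicing factor gene PHF5A (0.95), COQ10A (0.933) and CHCHD3 (0.923), and for GEMIN6 the histone gene H3C12 (0.948), POLE3 (0.942) and ISG20L2 (0.938). For TMEM45A they were FPR1 (0.930), RWDD2A (0.926) and PGAM2 (0.922), and for EIF2B2 GPN2 (0.937), TYSND1 (0.931) and GLA (0.922). ST20 was most like EDF1 (0.930), NIPSNAP3A (0.926) and TRNAU1AP (0.907), each of which, like ST20 itself, was lower in 5 of 6 pairs on that scale. PHF5A had the largest knockdown difference of the genes named here, at -1.12 on the quantile scale. The correlations include the knockdown arrays, so genes lower with knockdown are favoured by this ranking.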

How the data were processed

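Expression of 14 conditions of MKN28 and MKN28snai1ER cells was measured on Affymetrix Human Gene 1.0 ST arrays, 1 array per condition. The deposited values are log2 intensities from RMA, run by the authors in Partek (submitters' processing notes; versions and genome build not given in the sources used here), and they were used on that scale. RMA normalizes arrays to one another, yet 2 arrays kept lower medians, so quantile normalization and median centring of all probe sets were alternatives. Scanner files were not used here.

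Of 33297 probe sets, 19460 had 1 gene symbol, 1754 had several and 12083 were not listed. Current symbols were taken by gene ID, probe sets of a gene were averaged (18417 genes), and genes whose mean reached the 40th percentile (log2 5.90) were tested (11050). limma 3.58.1 in R 4.3.3 fitted 12 treated arrays with the pair as a block (5 residual degrees of freedom for knockdown, 4 for its interactions with line or day), with Benjamini-Hochberg adjustment at 0.05. The scripts were tested on simulated data. The pair comes from the labels (same line, treatment and day), and a fit without the block was an alternative. The labels name no separate cultures, so p-values measure only the spread between these arrays, treatments included, and the number of arrays limits the precision.

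The members and gene lists were chosen with earlier results of these data known. The genes named are the members, ANGPTL4, SNAI1, ANKRD1, MT1X, the 2 coding genes just outside the threshold, the 3 genes most correlated with each member, TMEM45B, the neighbours of ST20 and genes of the 5 lists, of which any could be named; SNORD116-6, COL1A1 and ST20-AS1 were added after their values were seen. Alternatives also covered the filter, the brightest probe set, a mean-variance trend, array weights, a 2-fold rule and leaving out each pair.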

Additional observations from a re-analysis of the deposited data

How the results depend on the processing

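The mean knockdown difference of each of the 6 genes kept its direction under all alternatives run, from -0.92 for EIF2B2 to -1.66 for TMEM45A. For subsets of the pairs, leaving out each pair included, this was fixed in advance, since the genes were chosen as lower in all 6 pairs. The filter and the brightest probe set could not change it either, as each gene has 1 probe set. The -1.66 of TMEM45A, after median centring of the arrays, was the single mean that moved by more than the SD of its pairs (as deposited -1.31). The count of genes called lower with knockdown, 9 as deposited, was 1171 after median centring, 89 after quantile normalization, 14 with a mean-variance trend, 21 with array weights and 2 with no replicate block, that is, without the pairing of arrays. Leaving out 1 pair gave 3 to 16: 3 without hypoxia at day 2 or without 4-OHT at either day, and 16 without hypoxia at day 1. The list of 6 is thus tied to the deposited scale and to the full set of pairs. The count of genes lower in all pairs, 302, became 1890 after median centring and 920 after quantile normalization, and 347 to 540 with 1 pair left out (540 without hypoxia at day 1, 491 without TGF-β at day 2), where fewer pairs have to be lower. Median centring moves all genes together, with a median knockdown difference of -0.23 against 0.12 as deposited.

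The line interaction called 5 genes as deposited, 0 after quantile normalization, 0 after median centring, 14 with no filter on dim genes, 9 with a mean-variance trend and 1268 with array weights, and 0 to 127 with 1 pair left out (127 without hypoxia at day 1, 29 and 34 without a TGF-β pair, 0 without hypoxia at day 2 or 4-OHT at day 4). The cause was not tested. None of the 6 was called by the line interaction in any of 13 alternatives (lowest limma adjusted p = 0.213), by the day interaction in any of 13 (0.562) or by the change between days in any of 14 (0.954). Both interactions use the pair differences whose small spread helped to choose the genes, so the absence of a call by them shows little by itself. The number of the 6 past the rule of size in hypoxia without knockdown went from 2 to 1 with a 2-fold rule (TMEM45A remained). With TGF-β without knockdown it went from 0 to 1 after quantile normalization, where 2.5% of all genes rose. After median centring it was 4, where 22.5% of all genes rose. With TGF-β and knockdown it went from 5 to 2 with a 2-fold rule. The share of all genes past the 2-fold rule was not computed. These counts rest on arrays that the choice of genes used, and are a description. The other 169 recomputed values kept their call, or moved by at most 1.5 times for a count, less than the SD of the pairs for a mean and less than 1.5-fold for a difference between the untreated lines. With 1 array per condition and a dim ANGPTL4 probe set, the knockdown itself could not be read from these arrays.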
